A study of Mus musculus with 8 samples.

Results

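The genes described here are 8 components of the Hedgehog signalling pathway: the ligand gene Dhh, the receptor genes Ptch1 and Smo, the transcription factor genes Gli1, Gli2 and Gli3, and the inhibitor genes Hhip and Sufu. They were chosen by gene symbol from a table of 28460 genes, and all 8 were present and passed the filter on low counts. RNA-seq was carried out on testis cells of mice of mixed background at postnatal day 12, in 4 wild-type samples (genotype Brg1WT, sample names WT1 to WT4) and 4 conditional knockout samples (genotype Brg1cKO, sample names cKO1 to cKO4), here called WT and cKO. Brg1 is the protein product of Smarca4, an ATPase that drives the SWI/SNF chromatin remodelling complex. The series' design text calls the 4 samples of each genotype biological replicates. The sources used here do not name the Cre driver, the cells in which it acts or the deleted part of the gene.

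In Hedgehog signalling, a secreted ligand binds the receptor Patched-1 and relieves its inhibition of Smoothened, a membrane protein that then acts through the primary cilium on the GLI transcription factors. GLI2 is mainly an activator, GLI3 is mainly a repressor, and GLI1 is an activator whose own gene, like Ptch1 and Hhip, is a target of the pathway in many tissues. In the testis, Sertoli cells make the ligand Desert hedgehog, and Leydig and peritubular myoid cells and their precursors outside or around the tubules respond to it.

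Library totals ran from 20456743 to 32596038 estimated counts. Smarca4 lay at 337.9 to 356.6 CPM, which are counts scaled to a common library total, in WT and at 110.9 to 129.2 CPM in cKO, so each library matched its label. The cells were labelled spermatogenic but were not sorted by a marker named in the labels, and the libraries held RNA of both germ and somatic cells. Dazl, a germ cell RNA-binding protein gene, stood at 645 CPM and Clu, a secreted chaperone gene of Sertoli cells, at 2808 CPM in WT. In such bulk samples, a change in the share of a cell type and a change in RNA per cell cannot be told apart. Of 16059 genes tested, the edgeR quasi-likelihood test called 3312 (20.6%, adjusted p under 0.05), of which the higher ones in cKO made up 8.79% and the lower ones 11.8% of all tested.

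Of the 8 genes, 3 rose in cKO (Dhh, Ptch1 and Smo), 1 fell (Gli2) and 4 did not pass the test (Gli1, Gli3, Hhip and Sufu). The median log2 fold change of the 8 was 0.39, beside 0.01 over all genes tested. The libraries of the genotypes did not overlap for Dhh and Smo, which were higher in cKO, and for Gli2, which was lower. Of all tested genes, 26.0% did not overlap, 11.1% being higher and 15.0% lower. WT replicates 1 and 2 were set apart as a pair because earlier results, not shown here, had more late germ cell transcripts in them. Without this pair, Gli2 alone of the 8 was called. That fit called 438 of 16436 genes in all, against 3312 with every library, so calls were fewer over all genes.

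**Figure D1:**
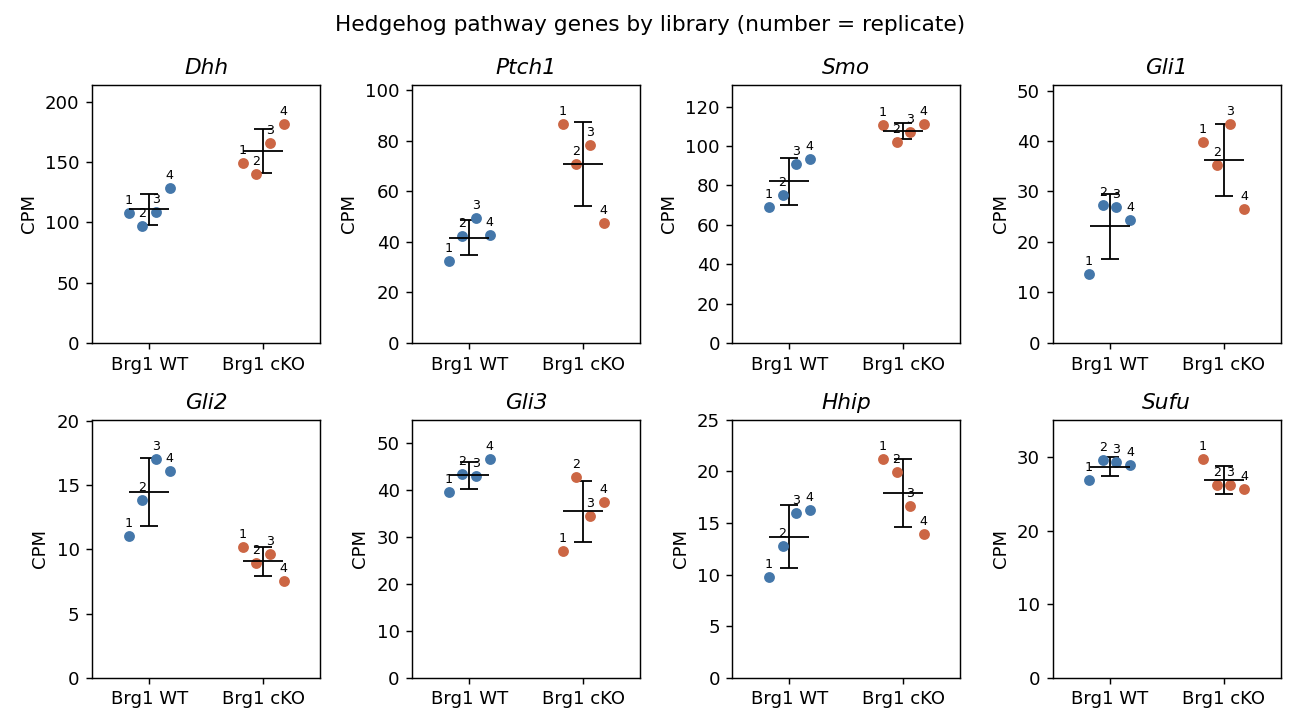
Level of each Hedgehog gene in CPM (vertical axis) in the 4 WT and 4 cKO libraries. Points are libraries numbered by replicate, and the bar and whiskers are the mean and SD. Dhh and Smo are higher and Gli2 is lower in every cKO library than in any WT library, and Ptch1, Gli1, Hhip and Gli2 are each lowest within WT in replicate 1 and within cKO in replicate 4.

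RefSeq windows around the gene start (GRCm38.p6) were found for 7 of the 8 genes, all but Gli1. For the 4 genes that changed, the 250 bases before the start are printed here, 5′ to 3′ on the strand of the gene, because 3 of them rose and 1 fell in the same libraries. Capitals mark CCACCC, the core of the GLI binding motif GACCACCCA, on either strand, so that a match on the opposite strand reads GGGTGG.
Dhh, chr15:98898541-98898790, minus strand: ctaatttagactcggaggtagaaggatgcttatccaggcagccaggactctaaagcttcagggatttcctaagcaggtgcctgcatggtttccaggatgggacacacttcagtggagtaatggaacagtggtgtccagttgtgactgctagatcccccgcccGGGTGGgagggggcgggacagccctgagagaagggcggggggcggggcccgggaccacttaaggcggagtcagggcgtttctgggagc
Ptch1, chr13:63565736-63565985, minus strand: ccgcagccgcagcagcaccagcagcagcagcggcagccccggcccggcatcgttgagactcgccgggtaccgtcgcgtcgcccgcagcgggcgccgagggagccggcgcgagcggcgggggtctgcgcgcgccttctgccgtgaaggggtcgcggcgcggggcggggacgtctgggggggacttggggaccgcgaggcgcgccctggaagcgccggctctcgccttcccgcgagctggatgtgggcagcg
Smo, chr6:29735247-29735496, plus strand: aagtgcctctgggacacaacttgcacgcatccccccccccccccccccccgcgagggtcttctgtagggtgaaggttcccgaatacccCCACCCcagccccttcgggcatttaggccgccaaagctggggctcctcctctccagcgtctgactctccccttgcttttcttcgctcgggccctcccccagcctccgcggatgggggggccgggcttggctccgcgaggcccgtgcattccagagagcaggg
Gli2, chr1:119053620-119053869, minus strand: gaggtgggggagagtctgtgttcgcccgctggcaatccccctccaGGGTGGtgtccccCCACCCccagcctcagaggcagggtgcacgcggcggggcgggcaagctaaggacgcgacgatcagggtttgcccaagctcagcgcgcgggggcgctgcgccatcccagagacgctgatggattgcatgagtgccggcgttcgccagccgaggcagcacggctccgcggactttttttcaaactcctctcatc
The whole motif GACCACCCA, searched on both strands of the full 300 base windows that run past the start, was in none of the 7 and in 0.253% of 32851 windows of all genes. With any base allowed at the fifth position (GACCNCCCA), it was again in none of the 7 and in 0.977% of all windows. The core CCACCC, which lies inside that motif, was in the windows of Dhh, Smo, Gli2, Gli3 and Hhip and in 31.5% of all windows. GGGCGG, a GC box, was in those of all but Smo and in 35.7% of all windows. The windows of Ptch1, a textbook GLI target, and of Sufu held no CCACCC. GC content of the 250 bases ran from 54% in Sufu and 59.6% in Dhh to 78.4% in Ptch1.

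Among the ligands, Dhh was the abundant one. WT replicates 1 to 4 had 108.1, 97.27, 108.9 and 128.8 CPM of Dhh, and cKO replicates 1 to 4 had 149.2, 140.1, 165.9 and 181.4 CPM. Every cKO library lay above every WT library. Mean levels were 111 ± 13.2 and 159 ± 18.3 CPM (± SD over n = 4 libraries, as in all means that follow), or 0.52 ± 0.10 on the log2 scale (fold change and SE, adjusted p = 0.0103). Without WT replicates 1 and 2 the difference was 0.42 and was not called (adjusted p = 0.102), while each of the 8 fits that left out a single library called it. Ihh, the gene of Indian hedgehog, had 0.622 ± 0.091 CPM in WT and 0.649 ± 0.058 CPM in cKO. Shh, the gene of Sonic hedgehog, was too low to be tested, at 0.077 to 0.397 CPM in the 8 libraries.

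The rise of Dhh ran beside that of Sertoli cell markers. Of 20 such genes, 8 were called higher, 1 lower and 11 not, with a median log2 fold change of 0.38 and 18 differences above 0. The uncalled ones included Sox9 (0.37), Wt1 (0.26) and Gata1 (-0.03), named after their values were seen. The summed level of the 20 was 6428 to 8286 CPM in WT and 8323 to 10970 CPM in cKO, and none was at 0 in all libraries. In these sums the abundant Clu, Ctsl and Aard weigh most. When the libraries were scaled to equal Sertoli marker levels, the Dhh difference was 0.17 (adjusted p = 0.178), on a scale where the median of all genes was -0.35. Dhh is also known from Schwann cells and endothelium. Sox10, a transcription factor gene that marks Schwann cells, had 5.55 ± 0.79 CPM in WT and 2.19 ± 0.51 CPM in cKO and was called lower (adjusted p = 0.00405), and was chosen after its values were seen. Of the 7 Schwann cell genes tested, 2 were called, both lower, the list median was 0.27, and the summed level of the 8 listed was 107.2 to 142.7 CPM in WT and 149.4 to 168.7 CPM in cKO. No endothelial marker of 10 was called by edgeR, none had an unadjusted p under 0.05, and their summed level was 173.8 to 275.2 CPM in WT and 185.3 to 449.5 CPM in cKO. Apart from the scaling given, the part of these cell types in the Dhh result was not tested.

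Of the genes that help to release the ligand, the 3 Scube genes and Disp2 fell. Scube proteins are secreted factors that carry lipid-modified Hedgehog off the producing cell, and Dispatched proteins export it. Scube3 had 27.26, 26.95, 24.69 and 25.28 CPM in WT replicates 1 to 4 and 6.822, 9.695, 6.457 and 5.887 CPM in cKO replicates 1 to 4. The groups lay far apart, by -1.85 ± 0.15 on the log2 scale (fold change and SE, adjusted p = 4.09e-04). Scube2 fell by 1.28 ± 0.17 (SE) on the log2 scale, from 10.4 ± 0.85 to 4.27 ± 1.02 CPM. Scube1 fell from 15.9 ± 0.93 to 10.7 ± 1.88 CPM. Scube2 and Scube3 were called in all 21 alternative fits, and Scube1 in 16. Scube1 was not called without WT replicates 1 and 2 (adjusted p = 0.122), nor with cKO replicate 4 left out as well. Its call was also lost when libraries were scaled to equal stromal, Leydig or pan-germ cell marker levels. The median of the 7 ligand and release genes tested was -1.083, -1.005 and -0.253 on these scales, in that order. Over all genes the median was -0.45, -0.38 and 0.34. Disp2 fell from 1.85 ± 0.23 to 1.04 ± 0.21 CPM (adjusted p = 0.0256), a call that was lost in 5 of the 8 fits that left out a single library (WT replicates 2, 3 or 4, cKO replicates 1 or 3, adjusted p = 0.051 to 0.0745). It was made in 10 of the 21 alternative fits, and was lost on the stromal, Leydig and pan-germ cell scales too. Disp1 had 30.8 ± 4.91 and 34.8 ± 5.43 CPM, and Hhat, which encodes the enzyme that attaches palmitate to the ligand, had 6.52 ± 0.81 and 8.30 ± 0.98 CPM, and neither was called. Of the 7 ligand and release genes tested besides Dhh, 4 fell, none rose and 3 were not called, at a median of -0.57. Over all tested genes, 11.8% were called lower and 8.79% higher.

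Ptch1, the receptor gene, had 32.56, 42.29, 49.29 and 42.79 CPM in WT replicates 1 to 4 and 86.58, 70.78, 78.32 and 47.59 CPM in cKO replicates 1 to 4. cKO replicate 4 lay below WT replicate 3, so the groups overlapped, and the other cKO libraries stood above all WT libraries. The means were 41.7 ± 6.90 and 70.8 ± 16.8 CPM, or 0.76 ± 0.19 on the log2 scale (fold change and SE, adjusted p = 0.0242). The call was lost without WT replicate 1, WT replicate 2, cKO replicate 1 or cKO replicate 3 (adjusted p = 0.0602, 0.0605, 0.0639 and 0.0627), with the direction kept. It was also lost without WT replicates 1 and 2 together (0.63, adjusted p = 0.175), and was made again when cKO replicate 4 was left out as well (0.78, adjusted p = 0.0276).

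Smo, the signal transducer that Patched-1 holds in check, had 68.9, 75.19, 91.01 and 93.51 CPM in WT replicates 1 to 4 and 110.5, 101.9, 107.4 and 111.1 CPM in cKO replicates 1 to 4. The groups did not overlap, and the spread within cKO was narrow, at a coefficient of variation of 3.88% against 14.6% in WT. The log2 fold change was 0.39 ± 0.097 (SE, adjusted p = 0.0228), and turned to -0.03 and -0.01 when libraries were scaled to equal stromal or equal Leydig cell marker levels. The call was lost without WT replicate 2, cKO replicate 1 or cKO replicate 3 (adjusted p = 0.0639, 0.0631 and 0.0526). It was also lost, with a smaller difference, without WT replicates 1 and 2 (0.23, adjusted p = 0.113), without cKO replicate 4 as well (0.21, adjusted p = 0.121) and on the Sertoli cell scale (0.04, adjusted p = 0.754).

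Of the other 9 receptor and co-receptor genes, 3 rose, none fell and 6 were not called, at a median of 0.35. The shares over all tested genes were 8.79% higher and 11.8% lower. Evc and Evc2 encode partners that hold Smoothened at the base of the cilium. Evc rose from 7.09 ± 1.08 to 11.2 ± 1.40 CPM (adjusted p = 0.0163) and Evc2 from 18.1 ± 1.60 to 25.6 ± 2.89 CPM (adjusted p = 0.0133). The groups did not overlap for either, and 11.1% of all tested genes were higher without overlap. Gas1, a co-receptor that binds the ligand with Patched-1, rose from 12.6 ± 2.61 to 21.3 ± 5.90 CPM (adjusted p = 0.0424), and its call was lost in 7 of the 8 fits that left out a single library, all but that without cKO replicate 4 (adjusted p = 0.05 to 0.113). None of the 3 was called without WT replicates 1 and 2, in a fit that called 438 of 16436 genes. The differences there were 0.53, 0.44 and 0.77 for Evc, Evc2 and Gas1, and 5 of the 9 genes had an unadjusted p under 0.05. When scaled to the Sertoli, stromal or Leydig lists, none of the 3 was called either.

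Gli1, whose level is often used as a readout of pathway activity, had 13.63, 27.34, 26.86 and 24.43 CPM in WT replicates 1 to 4 and 39.74, 35.32, 43.31 and 26.57 CPM in cKO replicates 1 to 4. WT replicate 1 and cKO replicate 4 were each the low library of their genotype, and cKO replicate 4 lay among the WT libraries. The log2 fold change was 0.65 ± 0.23 (SE) and was not called by edgeR (adjusted p = 0.0741). DESeq2 called it (0.67, adjusted p = 0.0176), and edgeR called it without cKO replicate 4 (0.78, adjusted p = 0.0452).

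Hhip, which encodes a membrane protein that binds the ligand and lowers its signal, had 9.751, 12.81, 15.92 and 16.24 CPM in WT replicates 1 to 4 and 21.2, 19.97, 16.6 and 13.9 CPM in cKO replicates 1 to 4. The groups overlapped through cKO replicate 4, and the log2 fold change of 0.39 (95% interval -0.03 to 0.81) did not pass (adjusted p = 0.161). It was 0.26 without WT replicate 1 (adjusted p = 0.32) and 0.16 without WT replicates 1 and 2 (adjusted p = 0.63). It turned to -0.12 and -0.10 with the stromal and Leydig cell lists as the level of no change.

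Ptch1, Gli1, Hhip and Gli2 had the lowest library of each genotype in common, WT replicate 1 and cKO replicate 4, and several marker lists were lowest there too. Mean log2 CPM of 10 interstitial stroma markers was 5.22 in WT replicate 1 and 5.66 to 5.92 in the other WT libraries, and 5.29 in cKO replicate 4 against 6.22 to 6.64 in the other cKO libraries. Their summed level was 965 to 1565 CPM in WT and 1220 to 2604 CPM in cKO, 2 of the 10 were called higher and none lower, and none was at 0 in all libraries. Col1a2, the most abundant of them, had 507 ± 104 and 753 ± 196 CPM. Leydig cell genes, 3 of 13 of them called higher, summed to 323.4 to 355.6 CPM in WT and 359.3 to 447 CPM in cKO, sums in which the abundant Scarb1 and Nr5a1 weigh most. The mean log2 CPM of the Leydig cell list did not separate the genotypes in this way: it was 2.50 to 3.19 in WT, lower than that in cKO replicate 4 (2.40) and 3.48 to 3.67 in the other cKO libraries. Endothelial and macrophage lists were also lowest within each genotype in WT replicate 1 and cKO replicate 4, with a mean log2 CPM of 3.10 and 1.14 in WT replicate 1 and of 3.07 and 1.31 in cKO replicate 4. The 9 macrophage genes summed to 41.8 to 61.33 CPM in WT and 36.81 to 80.35 CPM in cKO, and edgeR called none of them (none at an unadjusted p under 0.05). Peritubular myoid genes, 1 of 9 of them called lower, summed to 957.7 to 1737 CPM and 1530 to 2262 CPM, and their mean log2 CPM was again lowest in WT replicate 1 (5.59) and, within cKO, in replicate 4 (5.84). Scaled to equal stromal marker levels, the differences of Ptch1 and Gli1 were 0.23 and 0.18, neither called (adjusted p = 0.726 and 0.79), beside a median of all genes of -0.45. Dhh followed another order, highest in cKO replicate 4 with 181.4 CPM.

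**Figure D2:**
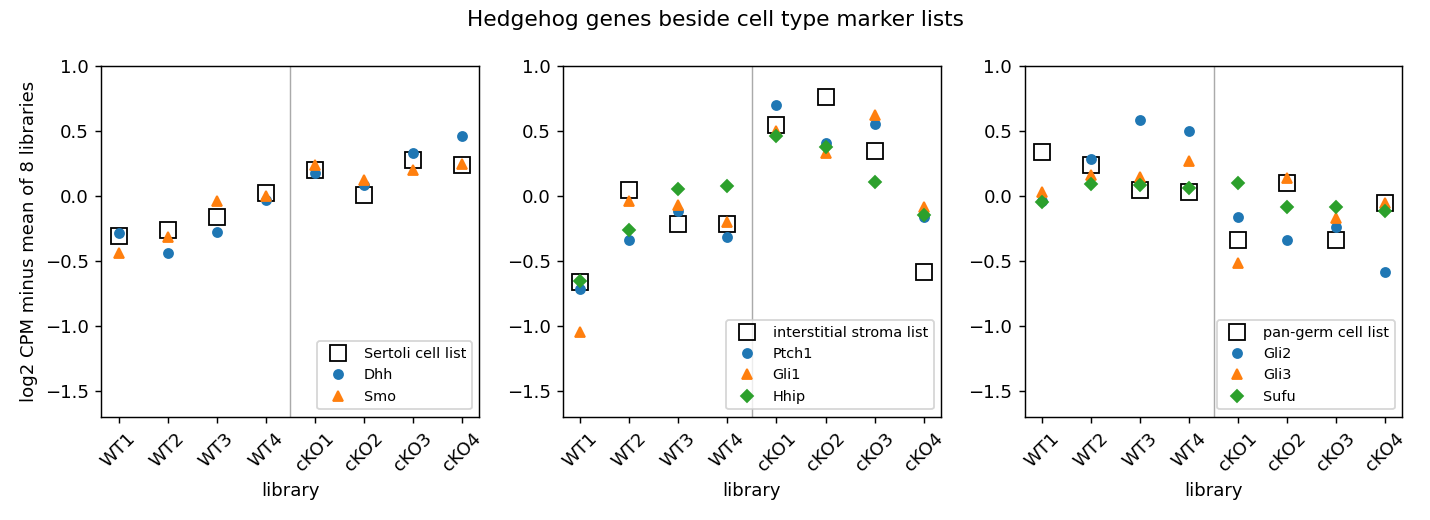
Level of each Hedgehog gene in each library as log2 CPM minus its mean over the 8 libraries (vertical axis, libraries on the horizontal axis), with the mean of a cell type marker list on the same scale as open squares. Dhh and Smo lie near the Sertoli cell list, while Ptch1, Gli1 and Hhip are lowest within WT in replicate 1 and within cKO in replicate 4, as is the stroma list, at 5.22 and 5.29 log2 CPM. In cKO replicate 4 these 3 genes lie among the WT libraries, and the stroma list lies below WT replicates 2 to 4.

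Gli2 was the member that fell. It had 11.07, 13.84, 17.05 and 16.08 CPM in WT replicates 1 to 4 and 10.16, 8.966, 9.625 and 7.569 CPM in cKO replicates 1 to 4. Every cKO library lay below every WT library, the nearest being WT replicate 1 and cKO replicate 1. The means were 14.5 ± 2.66 and 9.08 ± 1.12 CPM, or -0.68 ± 0.15 on the log2 scale (fold change and SE, adjusted p = 0.0173), from 328 to 558 counts in WT and 153 to 246 counts in cKO. Without WT replicate 3 it just missed the threshold (-0.57, adjusted p = 0.051). Without WT replicates 1 and 2 it was -0.86 and was called. The direction was the same when libraries were scaled to each of the 4 marker lists, with -0.35 for the pan-germ cell list (adjusted p = 0.244) and -1.16 for the stroma list (adjusted p = 0.062).

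Gli3 was lower in cKO on average, as Gli2 was, but did not pass the test. It had 39.51, 43.33, 42.78 and 46.49 CPM in WT replicates 1 to 4 and 27.01, 42.64, 34.45 and 37.3 CPM in cKO replicates 1 to 4, with cKO replicate 2 among the WT libraries. The log2 fold change was -0.28 ± 0.13 (SE, adjusted p = 0.135), it was called without cKO replicate 2 (-0.38, adjusted p = 0.0451), it was -0.17 without cKO replicate 1 (adjusted p = 0.25), and it turned to 0.01 with the pan-germ cell list as the level of no change. Pan-germ cell markers, 2 of 10 called lower and none higher, summed to 1954 to 2426 CPM in WT and 1487 to 1997 CPM in cKO. Their part in the values of Gli2 and Gli3 was not tested beyond this scaling.

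Sufu, which holds GLI proteins inactive in the cytoplasm, varied least of the 8 within WT. It had 26.92, 29.64, 29.4 and 28.99 CPM in WT replicates 1 to 4 and 29.76, 26.21, 26.19 and 25.63 CPM in cKO replicates 1 to 4, with overlap. The log2 fold change was -0.09, with a 95% interval of -0.26 to 0.08 (adjusted p = 0.401), and it turned to 0.24 with the pan-germ cell list as no change. Coefficients of variation over the 4 libraries of a genotype were 4.31% and 7.04% for Sufu, against 27.8% and 20% for Gli1 and 16.5% and 23.7% for Ptch1.

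Ratios inside a library do not depend on how libraries are scaled, and the ratios below were chosen after values were seen, so they are given without a test. Gli1 counts over Gli2 counts were 1.23, 1.98, 1.57 and 1.52 in WT replicates 1 to 4 and 3.91, 3.94, 4.5 and 3.51 in cKO replicates 1 to 4. The cKO ratios stood above all WT ratios, cKO replicate 4 included, although that library was the lowest of its genotype for each of these genes. Ptch1 counts over Gli2 counts were 2.66 to 3.06 in WT and 6.29 to 8.52 in cKO. Gli1 counts over Gli3 counts were 0.345 to 0.631 and 0.712 to 1.47. Ptch1 over Dhh, target over ligand, overlapped, with a mean of 0.380 ± 0.075 in WT and 0.455 ± 0.136 in cKO and the lowest value of all, 0.262, in cKO replicate 4. Gli1 over Ptch1 was 0.545 ± 0.095 and 0.517 ± 0.047 (SD, n = 4 each) and overlapped too.

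**Figure D3:**
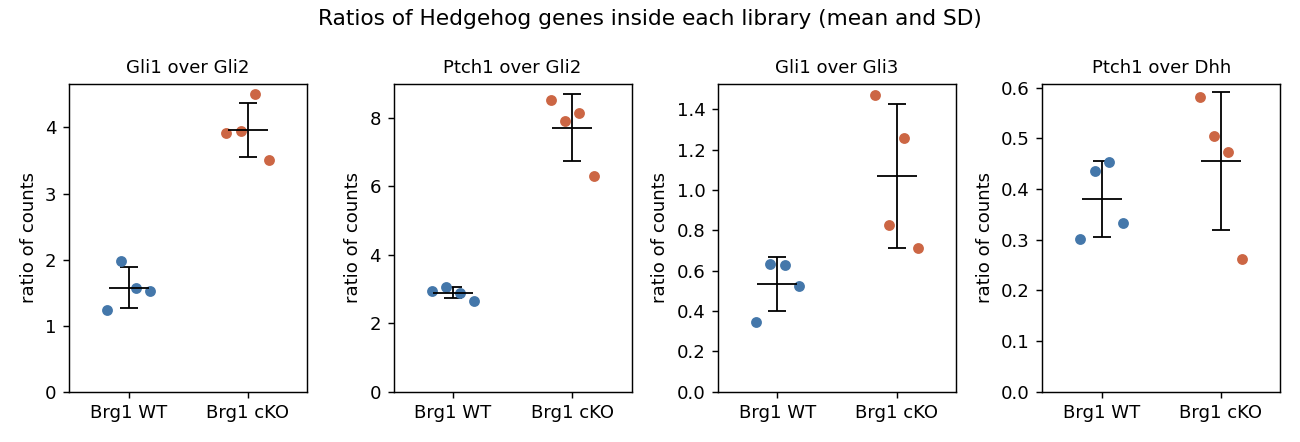
Ratio of the counts of named Hedgehog genes inside each library (vertical axis), with points for libraries and bars for the mean and SD. Gli1 over Gli2 lies at 1.23 to 1.98 in WT and 3.51 to 4.5 in cKO, and Ptch1 over Dhh overlaps between the genotypes.

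Levels of different genes were compared as CPM per kilobase of the longest coding transcript in GENCODE M21, matched by symbol. On this scale Dhh led in WT with 26.1, followed by Smo with 21.7, and their libraries overlapped. Sufu, Gli1, Ptch1 and Gli3 came next, at 6.36, 5.68, 5.40 and 5.27, each overlapping its neighbour in this order. Gli2 with 2.19 and Hhip with 1.51 were lowest and overlapped as well. In cKO, Dhh stood at 37.5 and Smo at 28.5 without overlap, then Ptch1 at 9.17, Gli1 at 8.93, Sufu at 5.96, Gli3 at 4.33, Hhip at 1.98 and Gli2 at 1.37. There Ptch1 and Gli1, and Gli1 and Sufu, overlapped, and the later neighbours did not, Hhip and Gli2 by the smallest of margins (lowest Hhip 1.532, highest Gli2 1.531). The order within the middle group rests on the length taken. Per kilobase of all exons of the gene, WT means were 4.62 for Gli1, 4.49 for Gli3, 3.74 for Sufu and 2.94 for Ptch1.

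Between the membrane and the GLI factors, 4 of 14 transduction genes rose, 4 fell and 6 were not called, at a median of 0.11. Over all tested genes, 8.79% were called higher and 11.8% lower. Adrbk1, now Grk2, which encodes a kinase that phosphorylates Smoothened, fell from 66.5 ± 2.86 to 52.0 ± 1.71 CPM (-0.35 ± 0.057 as log2 fold change and SE, adjusted p = 0.00499). Kif7, the gene of a ciliary kinesin that regulates GLI processing, fell from 29.5 ± 1.12 to 21.4 ± 2.44 CPM (adjusted p = 0.0112). Gnas, whose product raises cAMP and thereby opposes the pathway, rose from 435 ± 41.7 to 611 ± 48.9 CPM (adjusted p = 0.00761). Spop, the gene of an adaptor for GLI breakdown, rose from 100 ± 8.49 to 124 ± 8.52 CPM (adjusted p = 0.0219), a difference of 0.31 that became -0.04 with the Sertoli cell list as no change. The rest of the called genes, named after their values were seen to complete the counts, were Stk36 (-0.54) and Cul3 (-0.21) among the falls and the protein kinase A genes Prkaca (0.25) and Prkar1a (0.19) among the rises on the log2 scale. Cul3 turned to 0.12 on the pan-germ cell scale, and Prkaca and Prkar1a to -0.11 and -0.17 on the Sertoli cell scale. Of the 8 fits that left out a single library, calls were lost in 4 for Spop, 5 for Cul3 and for Prkaca, and 6 for Stk36 and for Prkar1a, and in none for Adrbk1, Kif7 and Gnas. Without WT replicates 1 and 2, in a fit that called 438 of 16436 genes, Adrbk1 alone of the 14 was called. With the pan-germ cell list as no change, 6 of the 14 were called higher and 0 lower, so the calls of Adrbk1 and Kif7 were lost. With the Sertoli cell list, 4 were called lower, Adrbk1 and Kif7 among them, and 0 higher, so that of Gnas was lost. With the stroma or the Leydig cell list 0 were called (3 and 2 at an unadjusted p under 0.05), at list medians of -0.321 and -0.271.

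Genes of transport in the cilium, where the pathway operates in mammals, showed 4 lower, 1 higher and 10 uncalled of 15, at a median of -0.09. The shares over all tested genes were 11.8% lower and 8.79% higher. Germ cells also use many of these genes. Dync2h1, the retrograde motor heavy chain, fell from 107 ± 13.7 to 74.3 ± 6.75 CPM (adjusted p = 0.00854) and Kif3a, of the anterograde motor, from 92.0 ± 5.41 to 71.1 ± 5.14 CPM (adjusted p = 0.0086). Ift80 fell from 49.7 ± 3.70 to 36.9 ± 5.01 CPM, and Ift140, named after its value was seen, had a difference of -0.31 that became 0.02 on the pan-germ cell scale. Tulp3, an adaptor that brings receptors into the cilium, rose from 54.4 ± 3.63 to 64.1 ± 2.11 CPM, a difference of 0.24 that became -0.12 on the Sertoli cell scale. With a single library left out, calls were lost in 2 of 8 fits for Ift80 (WT replicates 1 or 2, adjusted p = 0.0582 and 0.0625), 4 for Tulp3 and 6 for Ift140. None of the 15 was called by edgeR without WT replicates 1 and 2, where 5 had an unadjusted p under 0.05. In that fit 438 of 16436 genes were called in all. With the pan-germ cell list as no change, 0 of the 15 were called lower and 3 higher. The calls of Dync2h1, Kif3a and Ift80 were thus lost on that scale. With the stroma or the Leydig cell list 0 were called (4 and 3 at an unadjusted p under 0.05), and with the Sertoli cell list 9 were called lower. The median of the 15 was -0.544, -0.455 and -0.464 on these scales, in that order, beside -0.45, -0.38 and -0.35 over all genes.

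Of 13 tested genes described as Hedgehog targets in other tissues, 3 rose, 3 fell and 7 were not called, at a median of 0.14. Over all tested genes, 8.79% were called higher and 11.8% lower. Foxf1, the mesenchymal forkhead factor gene, had 20.31, 27.49, 26.53 and 24.75 CPM in WT replicates 1 to 4 and 5.036, 3.827, 2.928 and 3.315 CPM in cKO replicates 1 to 4. It thus lay far below WT in every cKO library, also in replicates 1 to 3, where Ptch1 stood above all WT libraries. Its log2 fold change was -2.71 ± 0.18 (SE, adjusted p = 1.82e-04), and it was called in all 21 alternative fits. Jag2, a Notch ligand gene, fell from 67.0 ± 3.63 to 39.6 ± 2.58 CPM (adjusted p = 6.5e-04), and Foxm1, a cell cycle forkhead factor gene, from 88.8 ± 2.89 to 59.3 ± 9.12 CPM. Ccnd2, a D-type cyclin gene, rose from 143 ± 15.7 to 191 ± 21.0 CPM (adjusted p = 0.0198), a difference of 0.42 that became -0.05 on the stroma scale. Bcl2 (0.59) and Nr2f2 (0.79), named after their values were seen, also rose on the log2 scale. Their calls were lost in 4 and 7 of the 8 fits that left out a single library, and that of Ccnd2 in 1 (cKO replicate 1, adjusted p = 0.0565). Without WT replicates 1 and 2, in a fit that called 438 of 16436 genes, Foxf1 and Jag2 were called lower and none higher. These 2 were also the only genes called lower with the pan-germ cell list (4 higher) or the stroma list (0 higher) as no change. With the Leydig cell list Foxf1 alone was called. The call of Foxm1 was thus lost on each of these scales.

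**Figure D4:**
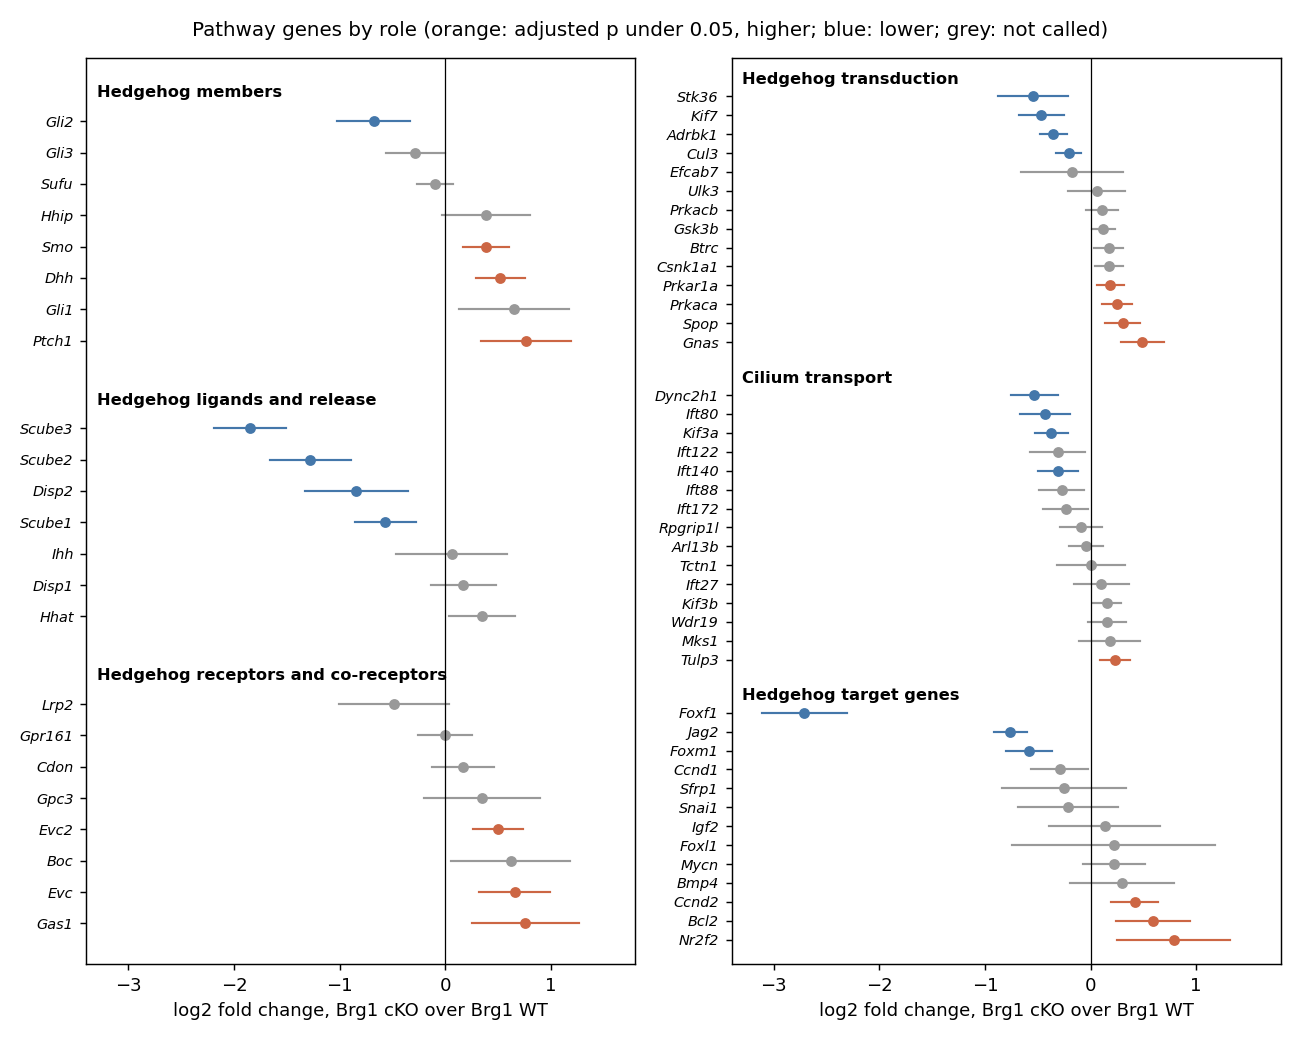
Log2 fold change of cKO over WT (horizontal axis) with its 95% interval for the 8 Hedgehog genes and 57 of the 58 other tested pathway genes, grouped by role. Orange points passed the test as higher, blue as lower, and grey did not pass. Scube3 at -1.85 and Foxf1 at -2.71 lie farthest to the left.

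The profiles most like those of 4 members were taken as the genes with the smallest root mean square difference of centred log2 CPM over the 8 libraries, among 12484 candidates. For Dhh these were Fbxo17 (0.068), Amh (0.074) and Tyro3 (0.077), beside a spread of Dhh itself of 0.298. For Ptch1 they were Penk (0.081), Hoxd9 (0.105) and Fabp3 (0.110), and for Gli1 they were Rhoj (0.060), Ltbp4 (0.074) and Cped1 (0.085). Hhip was nearest to Tulp1 (0.073), Gpx7 (0.079) and Fzd2 (0.080). Among the 8 genes themselves, Dhh lay nearest to Smo (0.143) and Ptch1 nearest to Gli1 (0.183), and the widest difference was that of Ptch1 and Gli2 (0.714). All profiles share the depth and cell mix of the same libraries.

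The level taken as no change moved every member. Over all genes, 1412 were called higher and 1900 lower, against 61 and 6404 with the Sertoli cell list, 9 and 738 with the stroma list, 9 and 567 with the Leydig cell list, and 3535 and 401 with the pan-germ cell list. With the pan-germ cell list as that level, Dhh, Ptch1, Smo and Gli1 were called higher and none lower, and the median of all genes was 0.34. With the Sertoli cell list, Gli2, Gli3 and Sufu were called lower and none higher, beside a median of all genes of -0.35. With the stroma or the Leydig cell list, edgeR called none of the 8, and 1 member, lower, had an unadjusted p under 0.05 in each. Medians of all genes there were -0.45 and -0.38.

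**Figure D5:**
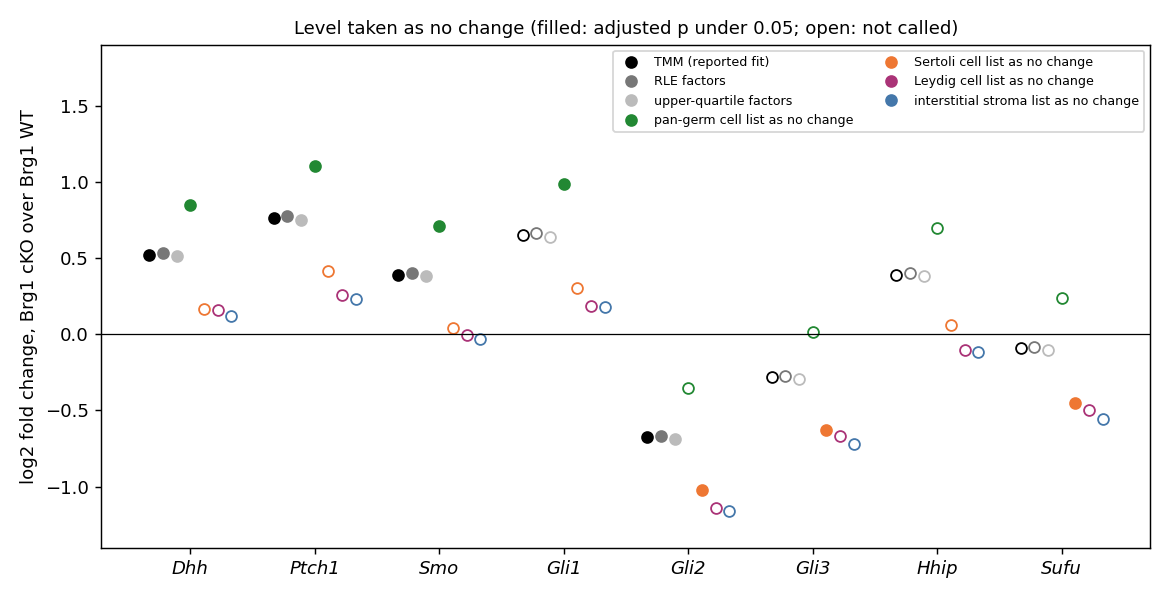
Log2 fold change of each Hedgehog gene (vertical axis) under 7 choices of the level taken as no change. Filled points passed the edgeR test and open points did not. Dhh, Ptch1 and Gli1 stay above and Gli2 below 0 in each of the 7, and Smo, Gli3, Hhip and Sufu cross 0 under some choices.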

How the data were processed

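RNA-seq libraries were made from 4 WT and 4 cKO samples with a stranded mRNA kit after digestion of testes, per the labels' protocols, and groups and replicate numbers came from the sample titles. The authors deposited 1 table of estimated counts by gene symbol, with no scaling for depth or length. The submitters' processing notes name kallisto 0.42.5, edgeR and the build mm9. How transcripts were summed to genes is not stated there.

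Counts were rounded, since 49.6% of the values were not whole, filtered with filterByExpr (16059 genes kept), scaled with TMM and tested for genotype with edgeR 4.0.16 (robust quasi-likelihood fit, R 4.3.3). P-values were adjusted over all genes (Benjamini-Hochberg), and an adjusted p under 0.05 was called. The SE is the absolute log2 fold change over the square root of F. CPM use TMM-scaled totals, and log2 levels a prior count of 2. The test was also run on counts simulated from the means and dispersions of the same fit. Such counts hold no differences in cell mix, so this run cannot show how the test behaves with them.

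The 8 genes, the pathway and marker lists, and the rule for naming genes were chosen with earlier results of these data known. Named by that rule were the 8 genes, Smarca4, up to 4 called genes of each pathway list by smallest adjusted p, the most abundant gene of a marker list, and the 3 genes nearest in profile to Dhh, Ptch1, Gli1 and Hhip (mean log2 CPM 1 or more, no provisional symbol). No set was tested. Alternatives were DESeq2 1.42.0, limma-voom (limma 3.58.1), upper-quartile and RLE factors, a filter of 1 CPM or more in 4 or more libraries, no filter, fits with libraries left out, the replicate number as a block, and scaling to equal mean log2 levels of a marker list. Promoter windows came from RefSeq on GRCm38.p6 and lengths from GENCODE M21, both matched by symbol. Neither is the build of the counts. Some results are not reported here.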

Additional observations from a re-analysis of the deposited data

Results flagged for a closer look

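Sufu in cKO replicate 1 stood apart from its group. It had 29.76 CPM there and 25.63 to 26.21 CPM in the other cKO libraries, a gap of 0.86 of the group's whole range, above Dixon's 95% critical value for 4 samples. Of 18 groups of 4 examined (the 8 genes and Smarca4 in each genotype), this was the 1 that did, and chance alone gives about 1 in 20.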

How the results depend on the processing

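Of the 8 genes edgeR called 3 higher and 1 lower. Leaving out single libraries gave 1 to 4 higher, 0 to 2 lower, 1608 to 3477 calls over all genes (3312 reported) and 14 to 24 among the 58 other pathway genes (26 reported). Without WT replicates 1 and 2, 0 were called higher (4 at an unadjusted p under 0.05), with 5 other pathway genes and 438 genes in all. Without cKO replicate 4 as well, 11 and 902 were called. With the replicate block, 14 other pathway genes and 1914 genes in all were called, and 0 members lower (2 at an unadjusted p under 0.05), Gli2 having an adjusted p = 0.0504 and Ptch1 0.0646. The numbers share no stated origin, and deviations of same-numbered libraries correlated at -0.206, 0.127, -0.367 and 0.152, so the fit without a block was kept. Over all genes, DESeq2 called 2238 higher and 2207 lower, against 1412 and 1900 by edgeR, and called 4 members higher and 1 lower.

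With the Sertoli cell list as no change 0 members were higher (1 at an unadjusted p under 0.05) and 3 lower. With the stroma and Leydig cell lists 0 were higher and 0 lower, with 4 and 3 other pathway genes called. With the pan-germ cell list 0 were lower, and none at an unadjusted p under 0.05. Smo turned to -0.033 and -0.007, Hhip to -0.116 and -0.102 with the stroma and Leydig cell lists, and Gli3 to 0.015 and Sufu to 0.239 with the pan-germ cell list. Dhh, Ptch1, Gli1 and Gli2 kept their direction in all 21 alternatives. Gli2, at 153 to 558 counts, and Hhip, at 281 to 548, were the least deeply counted members.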
